A study of Mus musculus with 16 samples.

Results

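Astrocyte marker genes were examined in cortices of mouse pups at postnatal day P7. The set held 31 genes chosen by name from genes known to mark astrocytes and their precursors, out of 36930 entries of the expression table. All 31 were found, had a value in every pup and were among the 21183 entries that passed the filter on low values (at least 12 of 16 pups above -5 on the log2 scale of CPM, the reads of an entry scaled to library size). The cortices came from 8 Avil-ChR2 and 8 ChR2-flfl pups on a C57BL6 background, all 7 days old. In Avil-ChR2 pups, Cre driven by the promoter of advillin, which is active in peripheral sensory neurons, switched on a channelrhodopsin-2/td-Tomato fusion. ChR2-flfl pups carried the floxed cassette without Cre. Both genotypes were exposed to blue light once a day, for 1 h, on P1 to P5, so that no group went without light. The study asked what stimulation of sensory neurons in early life leaves behind in the cortex. Avil-ChR2 and ChR2-flfl pups differed in the Cre transgene as well as in their response to light, and the 2 cannot be told apart.

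The libraries held between 30549126 and 48711134 reads per pup. Avil lay between 0.825 and 1.46 CPM in ChR2-flfl pups and between 37.3 and 46.4 CPM in Avil-ChR2 pups, so that every library matched its genotype label (adjusted p = 4.17e-19, limma with Benjamini-Hochberg adjustment). The pups are numbered in 2 runs, 26 to 33 and 35 to 42, and each run holds 4 Avil-ChR2 and 4 ChR2-flfl pups. The labels do not say what a run stands for. They name no litters, so that p-values measure the spread between these pups only. ChR2-flfl replicate 1 (pup 26) stood apart from the other pups, with the lowest value of all 16 for 16 of the 31 genes and the highest for 0. Where leaving it out moved a difference between the genotypes most, the value without it is given beside.

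Astrocytes take up glutamate and potassium released by neurons, supply neurons with metabolites and lipids, and cover vessels and synapses with their processes. In the rodent cortex they arise from radial glia around birth and multiply and branch during the first postnatal weeks, when synapses form. Their marker genes serve these tasks, and several are shared with other cells: Fabp7, Hes5 and Vim with radial glia, Apoe and Mertk with microglia, and Id3 and Vim with vessel cells. In bulk tissue, fewer cells of a type and less RNA per cell cannot be told apart.

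Each gene contributed between 243 reads (Gjb6) and 51767 reads (Sparcl1) to a library. Set per kb of the longest annotated transcript, the highest mean level over 16 pups was that of Fabp7, the fatty acid binding protein of radial glia and young astrocytes, at 405 CPM per kb. The secreted matrix protein Sparcl1 followed at 359 CPM per kb, the lipid carrier Apoe at 243 CPM per kb and glutamine synthetase, Glul, at 177 CPM per kb. These 4 genes stood above the next one, Ndrg2, at 97.6 CPM per kb. Gfap, the intermediate filament protein most used to stain astrocytes, reached 33.7 CPM per kb. The lowest levels on this scale were those of Mertk at 2.95 CPM per kb, Id4 at 2.59 CPM per kb and Megf10 at 1.44 CPM per kb. The entry of Id4 spans 2610 bases, fewer than the 3849 of its longest transcript. Its level per kb may therefore be set too low, and its rank is uncertain. All 31 genes were detected in a tissue labelled as cortex.

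**Figure D1:**
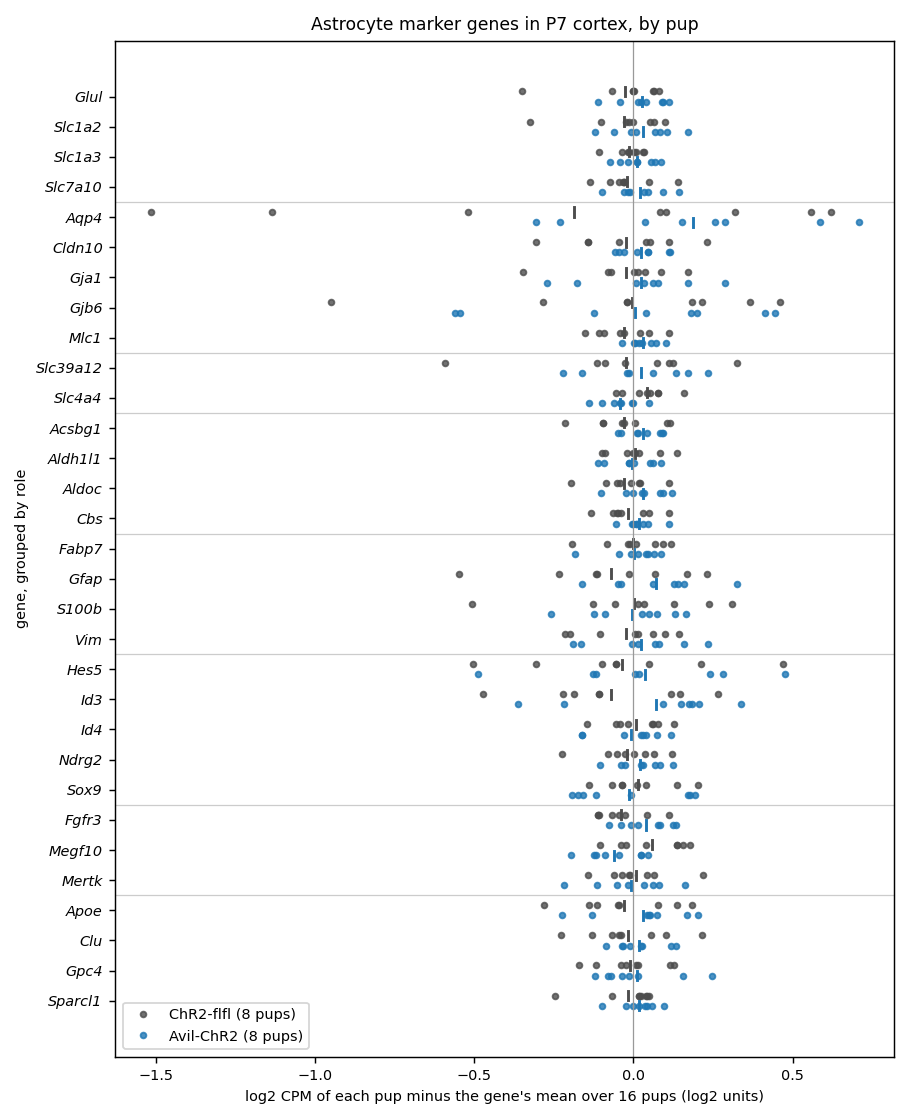
The 31 astrocyte genes, grouped by role (y axis), in each of 16 pups. The x axis gives the log2 CPM of a pup minus the mean of that gene over all pups, and colours mark the genotype. Aqp4, Gjb6 and Hes5 spread most between pups, Slc1a3 least, and the 2 genotypes overlap for every gene.

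No astrocyte gene passed the test between the genotypes. None of the 31 reached an adjusted p under 0.05 between Avil-ChR2 and ChR2-flfl pups (smallest adjusted p = 0.833, limma with Benjamini-Hochberg adjustment over 21183 entries), where 0.00944% of all entries did. Without adjustment, 2 of 31 (6.45%) had a p under 0.05 against 5.41% of all entries. Both were lower in Avil-ChR2 pups, a direction that 3.46% of all entries took at this p, and 0 were higher. The share of 2 in 31 was near that of all entries and is no result about astrocyte genes. The values of the genotypes overlapped for each of the 31 genes, and 0.0283% of all entries had groups that did not overlap.

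The differences were small. On the log2 scale, the difference between Avil-ChR2 and ChR2-flfl pups ranged from -0.12 (Megf10) to 0.37 (Aqp4) with a median of 0.0395. It was above 0 for 24 of 31 genes (77.4%) and for 51.4% of all entries, whose median was 0.00199. On average the difference was smaller without pup 26, since that of the mean log2 level of all 31 genes was 0.0425 with that pup and 0.0154 without it. Without it, 21 of 31 genes lay above 0, with a median of 0.0104. For 26 of 31 genes the 95% interval lay within 0.25 log2 units of 0 on either side. Differences of a larger size were therefore outside the interval for these 26 genes. The exceptions were Aqp4, Gjb6, Id3, Hes5 and Gfap.

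**Figure D2:**
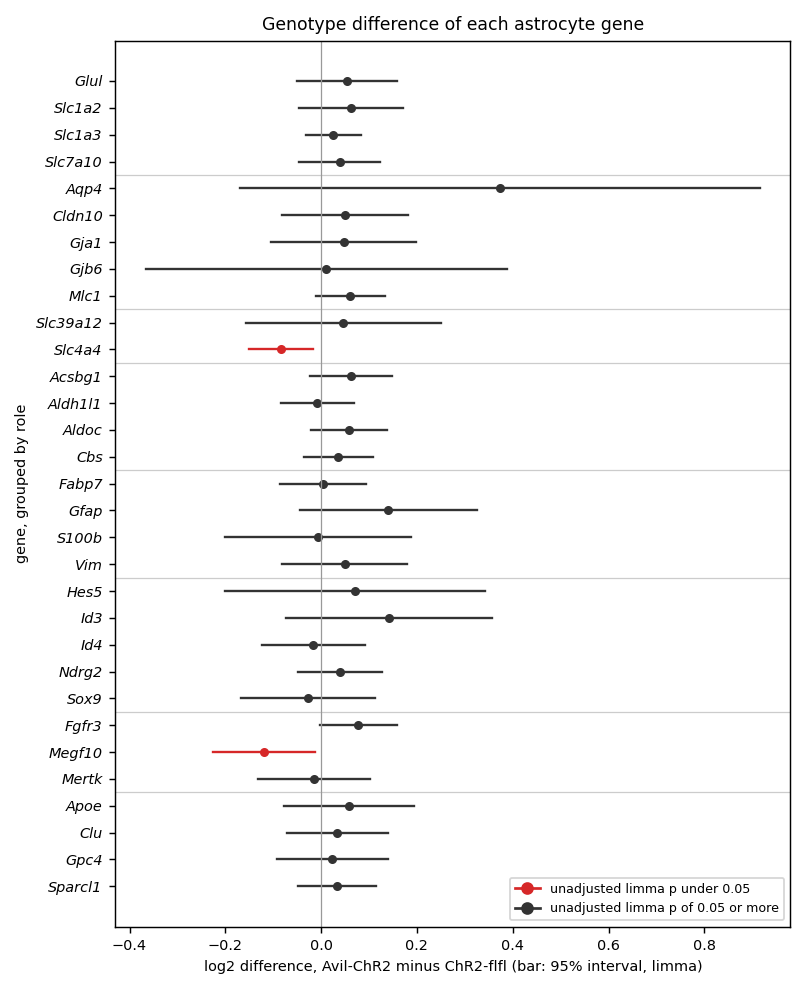
Log2 difference between Avil-ChR2 and ChR2-flfl pups (x axis) for each of 31 astrocyte genes (y axis, grouped by role), with the 95% interval from limma as a bar. The 2 genes with an unadjusted p under 0.05, Slc4a4 and Megf10, are drawn in red and both lie below 0, while Aqp4 has the widest interval, from -0.17 to 0.92.

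Slc4a4 encodes the sodium bicarbonate cotransporter with which astrocytes regulate pH. Its level ran from 135.8 over a median of 145.8 to 157.6 CPM in ChR2-flfl pups and from 128.1 over 137.1 to 145.9 CPM in Avil-ChR2 pups. The groups overlapped, but only 1 of 8 Avil-ChR2 pups exceeded the median of the controls. The log2 difference was -0.084 (95% interval -0.150 to -0.018), with p = 0.0155 and an adjusted p of 0.833 in limma and p = 0.0186 in the exact permutation test over pups. It was -0.129 in pups 35 to 42, where it had an unadjusted p under 0.05, and -0.0396 in pups 26 to 33, where it had not.

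Megf10, a receptor with which astrocytes engulf synapses, was the other gene at this threshold. It lay at 10.06, 11.50 and 12.23 CPM (lowest, median and highest) in ChR2-flfl pups and at 9.45, 10.3 and 11.2 CPM in Avil-ChR2 pups. None of the 8 Avil-ChR2 pups exceeded the median of the controls, and the ranges overlapped. The log2 difference was -0.12 (95% interval -0.23 to -0.01), with p = 0.0298 and an adjusted p of 0.884 in limma and p = 0.0294 in the exact permutation test. Within pups 26 to 33 it was -0.063, and within pups 35 to 42 it was -0.18 and again had an unadjusted p under 0.05. The unadjusted p in all pups rose above 0.05 when any one of ChR2-flfl replicates 3, 4, 6 and 7 or Avil-ChR2 replicates 1, 6 and 7 was left out. With a per-pup slope of expression on gene length as a covariate, neither gene had an unadjusted p under 0.05 (log2 differences of -0.069 for Slc4a4 and -0.10 for Megf10).

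The other receptors are Mertk, which works beside Megf10 in engulfment, and Fgfr3, a receptor for fibroblast growth factors on astrocytes and their precursors. Fgfr3 ran from 53.3 over 55.4 to 62.3 CPM in ChR2-flfl pups and from 54.6 over 59.4 to 63.2 CPM in Avil-ChR2 pups. The ranges overlapped almost entirely, although 7 of 8 Avil-ChR2 pups were above the median of the controls. The log2 difference of 0.078 (95% interval -0.0025 to 0.16) had an exact permutation p of 0.0718. Pups 26 to 33 gave a log2 difference of 0.15, with an unadjusted p under 0.05, and pups 35 to 42 one of 0.0064. With the slope on gene length as a covariate it was 0.026. In the test of whether the genotype difference depended on the run, Fgfr3 was the 1 gene of 31 with an unadjusted p under 0.05, against 3.04% of all entries (-0.14, adjusted p = 0.9998, limma). Mertk lay between 11.4 and 14.7 CPM in ChR2-flfl and between 10.9 and 14.1 CPM in Avil-ChR2 pups, with a log2 difference of -0.015 (95% interval -0.13 to 0.10).

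None of the 4 genes of glutamate and amino acid handling had an unadjusted p under 0.05. Slc1a2 and Slc1a3 encode the glutamate transporters GLT-1 and GLAST, which clear the synaptic cleft, Glul turns the glutamate into glutamine, and Slc7a10 carries serine and other small neutral amino acids. Slc1a2 ran from 691.9 over 862.6 to 928.7 CPM in ChR2-flfl pups and from 797.4 over 890.3 to 977.4 CPM in Avil-ChR2 pups. The lowest control value was that of pup 26, and the other pups overlapped. The log2 difference was 0.062 (95% interval -0.047 to 0.17), and 0.020 without pup 26. Slc1a3 was the steadiest of all members, between 370.1 and 424.1 CPM over all 16 pups, and its log2 difference of 0.025 had an interval of -0.032 to 0.082. The intervals of Glul (0.054) and Slc7a10 (0.039) held 0 as well. Without pup 26, Slc1a3 was at 0.011, Glul at 0.0075 and Slc7a10 at 0.038.

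Among structural and binding proteins, Gfap had the largest difference. It measured 60.5, 84.6 and 103.7 CPM (lowest, median and highest) in ChR2-flfl pups and 79.0, 94.4 and 110.7 CPM in Avil-ChR2 pups. The lowest value was that of pup 26, and 7 of 8 Avil-ChR2 pups lay above the median of the controls, within overlapping ranges. The log2 difference of 0.14 (95% interval -0.044 to 0.32, exact permutation p = 0.194) became 0.072 without pup 26 and 0.039 with the slope on gene length as a covariate. Vim, another intermediate filament gene, differed by 0.049 (95% interval -0.081 to 0.18). Fabp7 differed by 0.0046 (95% interval -0.085 to 0.094), with 311 to 386 CPM in ChR2-flfl and 313 to 378 CPM in Avil-ChR2 pups. The calcium binding protein S100b differed by -0.0064 (95% interval -0.20 to 0.19), and by -0.079 without pup 26.

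The secreted proteins Apoe, Clu and Sparcl1 and the proteoglycan Gpc4, which astrocytes release to promote synapse formation, all had differences above 0, from 0.023 (Gpc4) to 0.058 (Apoe), and 0 of 4 had an unadjusted p under 0.05. With the slope on gene length as a covariate, Apoe (-0.043) and Clu (-0.032) lay below 0, as did Gpc4 within pups 26 to 33 (-0.037). Without pup 26, Sparcl1 was at -0.00033, Clu at 0.0037 and Apoe at 0.022. Apoe ran from 280.6 over 329.8 to 386.7 CPM in ChR2-flfl pups and from 291.8 over 352.9 to 391.8 CPM in Avil-ChR2 pups. The ranges covered each other nearly in full. Of the metabolic enzymes, the folate enzyme Aldh1l1, often used as a pan-astrocyte marker, differed by -0.0078 (95% interval -0.084 to 0.068). Aldolase C, Aldoc, differed by 0.058 (-0.022 to 0.14), the acyl-CoA synthetase Acsbg1 by 0.062 (-0.023 to 0.15) and the homocysteine enzyme Cbs by 0.036 (-0.035 to 0.11). Without pup 26, Aldoc was at 0.034 and Acsbg1 at 0.035. The zinc transporter Slc39a12 differed by 0.046 (95% interval -0.16 to 0.25). Its direction turned without pup 26 (-0.036), and between the runs, with -0.026 for pups 26 to 33 against 0.12 for pups 35 to 42.

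Among the regulators, Id3 and Hes5 had the widest intervals. Id3, an inhibitor of basic helix-loop-helix transcription factors, ran from 17.4 over 22.4 to 29.0 CPM in ChR2-flfl pups and from 18.8 over 27.0 to 30.5 CPM in Avil-ChR2 pups. The medians stood apart while the ranges overlapped. The log2 difference was 0.14 (95% interval -0.073 to 0.36, exact permutation p = 0.2496), and it was -0.041 with the slope on gene length as a covariate. Hes5, a target of Notch signalling in precursors, differed by 0.071 (-0.20 to 0.34), with -0.12 under the same covariate and 0.11 without pup 26. Id4 (-0.016), Ndrg2 (0.040) and Sox9, a transcription factor of the glial lineage (-0.028), had intervals that held 0, and Ndrg2 was at 0.010 without pup 26. The direction turned between pups 26 to 33 and 35 to 42 for Sox9 (0.067 and -0.12) and Id4 (0.047 and -0.080).

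Gja1 and Gjb6 encode the connexins Cx43 and Cx30, which join astrocytes into a network. Gja1 ran from 86.8 over 111.2 to 124.4 CPM in ChR2-flfl pups and from 91.6 over 114.2 to 134.9 CPM in Avil-ChR2 pups. Gjb6 was scarcer and more uneven, from 5.01 over 10.3 to 13.3 CPM and from 6.57 over 10.5 to 13.2 CPM. The genotypes covered each other in both genes, and the log2 differences were 0.047 (95% interval -0.10 to 0.20) and 0.011 (-0.37 to 0.39). Without pup 26 that of Gja1 was 0.00050 and that of Gjb6 turned to -0.12. Mlc1, a membrane protein of astrocyte endfeet, differed by 0.061 (-0.011 to 0.13, exact permutation p = 0.102), and the tight junction gene Cldn10 by 0.050 (-0.082 to 0.18). Without pup 26, Mlc1 was at 0.044 and Cldn10 at 0.0096.

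Aqp4, the water channel of the endfeet, was the most uneven of the 31 genes and had the largest difference. Its values were 30.8, 93.9 and 135.5 CPM (lowest, median and highest) in ChR2-flfl pups and 71.2, 101.6 and 144.0 CPM in Avil-ChR2 pups. The 3 lowest values, 30.8, 40.0 and 61.4 CPM, were all those of ChR2-flfl pups, but the ranges overlapped. The log2 difference of 0.37 had a 95% interval of -0.17 to 0.92 (adjusted p = 0.945 in limma, exact permutation p = 0.257). Leaving out 1 pup moved it between 0.18, without ChR2-flfl replicate 8, and 0.49, without ChR2-flfl replicate 3. The standard deviation of its log2 values within genotypes was 0.615, and of 2079 entries of like level (within 0.5 log2 units) 1 had a higher one.

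Aqp4 lies on chromosome 18 at 15389394 to 15410977 (mm10, minus strand) and shares 14196 bases with A830021F12Rik, an entry on the plus strand at 15301780 to 15403589. This entry was chosen after its values were seen. It ran from 64.1 to 174.8 CPM and was high where Aqp4 was low, with r = -0.889 between the log2 values of both over 16 pups, genotype means removed, the 7th lowest r among 1531 pairs of entries that overlap in part. In the ChR2-flfl pup with the least Aqp4, at 30.8 CPM, A830021F12Rik stood at 156.8 CPM. In the Avil-ChR2 pup with the most Aqp4, at 144.0 CPM, it stood at 64.5 CPM. Their sum was far steadier than either, from 150.4 to 230.8 CPM, with a standard deviation of 0.131 in log2 over all pups against 0.625 for Aqp4 alone, and Aqp4 made up between 16.4% and 69.1% of it. The sum had a log2 genotype difference of 0.070 (95% interval -0.050 to 0.19). How reads in the shared stretch were assigned to either entry is not given in the sources used here, so that the level of Aqp4 itself is uncertain. Of the other members, 9 overlap at least 1 entry. In 3 of them, Aldh1l1, Slc7a10 and Id4, an overlapping entry passed the filter, and r between the 2 entries lay between 0.025 and 0.20. Genotype means were not removed for these 3 values, and r for Aqp4 on that basis was -0.859.

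**Figure D3:**
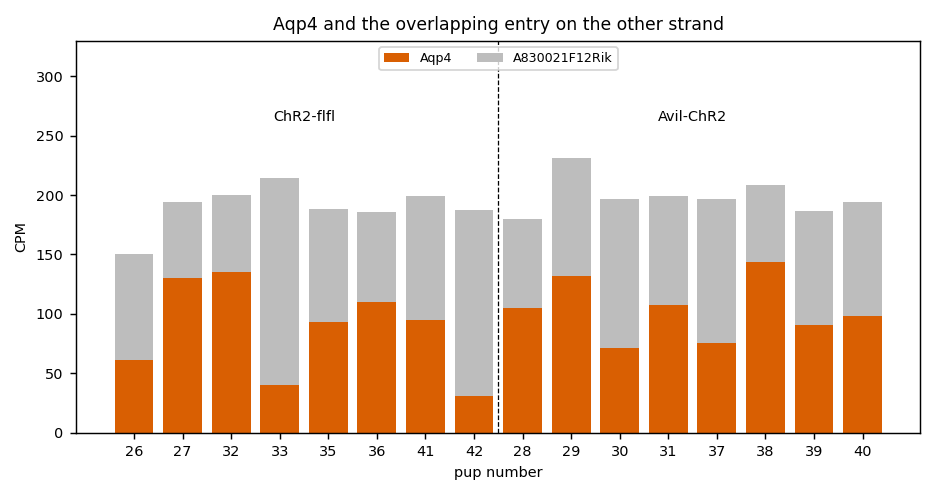
Stacked CPM (y axis) of Aqp4 (orange) and of A830021F12Rik on the other strand (grey) in each pup (x axis, pup number), with ChR2-flfl left and Avil-ChR2 right of the dashed line. Aqp4 alone ranges from 30.8 to 144.0 CPM, while the stacked total stays between 150.4 and 230.8 CPM.

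Further genes known from astrocytes were looked at beside the 31. Of 36 further genes of astrocytes outside the 31, 35 passed the filter. Of the 35, 22 had differences above 0, against 51.4% of all entries. An unadjusted p under 0.05 was found for 2 of 35, against 5.41% of all entries. After adjustment 0 passed, against 0.00944% of all entries. The share of these 2 was near that of all entries and is no result about astrocyte genes. The 2 were the urea transporter Slc14a1 and Nfib, a transcription factor of gliogenesis. Slc14a1 ran from 13.1 over 15.3 to 17.4 CPM in ChR2-flfl and from 16.1 over 16.9 to 17.5 CPM in Avil-ChR2 pups (log2 difference 0.13, 95% interval 0.021 to 0.24, adjusted p = 0.849, limma). Nfib ran from 125.6 over 152.1 to 174.5 CPM and from 124.0 over 140.5 to 146.2 CPM (log2 difference -0.15, 95% interval -0.26 to -0.037, adjusted p = 0.825, limma). Both overlapped between the genotypes.

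None of the genes that reactive astrocytes switch on passed the test between the genotypes. Of the pan-reactive list 9 of 11 genes were tested, of the A1 list, linked to inflammation, 11 of 12, and of the A2 list, linked to ischemia, 10 of 12. In each list 0 genes had an unadjusted p under 0.05 by genotype, and the median log2 differences were 0.041, -0.014 and -0.0056. Their levels were uneven. Median CPM ran from 0.0925 (Lcn2, with a value in 12 pups) to 51.9 (Cd44) in the pan-reactive list. It ran from 0.41 (Iigp1) to 31.6 (Fkbp5) in the A1 list and from 0.062 (Slc10a6) to 65.5 (S100a10) in the A2 list. For the scarcest of these genes the test says little. Among the markers of other cells, 2 of 10 neuronal genes passed without adjustment, where 5.41% of all entries did. Map2, a dendritic microtubule protein, was lower in Avil-ChR2 pups (log2 difference -0.077, adjusted p = 0.908, limma) and Slc17a7, the vesicular glutamate transporter of cortical neurons, was higher (0.11, adjusted p = 0.884, limma). Of 4 ependymal and choroid plexus genes tested, the choroid plexus gene Ttr passed without adjustment at values of at most 1.19 CPM (log2 difference 1.33, adjusted p = 0.911, limma). None of the microglial, oligodendrocyte, endothelial, meningeal or radial glial genes did (0 of 8, 10, 9, 7 and 9).

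The runs of pup numbers were compared as well. Between pups 35 to 42 and pups 26 to 33, with genotype in the fit, 4 of 31 genes had an unadjusted limma p under 0.05, against 12.5% of all entries. This share was near that of all entries and is no result about astrocyte genes. Without pup 26 the count was 8 of 31, and the share over all entries was not taken for that fit. After adjustment 0 passed, against 0.123% of all entries. Of the 4, 2 were higher in pups 35 to 42 (5.76% of all entries) and 2 were lower (6.74%).

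Sox9 ran from 12.74 over 14.55 to 15.03 CPM in pups 26 to 33 and from 11.43 over 11.96 to 13.43 CPM in pups 35 to 42. None of the 8 later pups exceeded the median of the earlier ones. The log2 difference was -0.20 (95% interval -0.31 to -0.095, exact permutation p = 0.00218, adjusted p = 0.107, limma), and without ChR2-flfl replicate 4 it was -0.22 with an adjusted p of 0.0498. Aldh1l1 had medians of 90.2 and 83.7 CPM and ranges of 85.5 to 95.3 and 80.2 to 87.7 CPM, a log2 difference of -0.097 (exact permutation p = 0.00497, adjusted p = 0.175, limma). Mertk and Slc1a2 went the other way. Mertk ran from 10.9 over 12.2 to 12.9 CPM in the earlier and from 12.3 over 13.2 to 14.7 CPM in the later pups (0.14, exact permutation p = 0.00264, adjusted p = 0.197, limma), and the medians of Slc1a2 were 844.8 and 907.4 CPM (0.11, exact permutation p = 0.0301, adjusted p = 0.309, limma). All 8 later pups exceeded the median of the earlier ones in both genes.

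Lists of other glial genes were compared between the runs, without adjustment. Of 8 microglial genes 0 had an unadjusted p under 0.05, against 12.5% of all entries. Of 9 radial glia and cell cycle genes 2 had, 1 higher and 1 lower. Of 10 oligodendrocyte lineage genes, 7 had an unadjusted p under 0.05 and all 7 were lower in pups 35 to 42, where 6.74% of all entries were. The median log2 difference of the 10 genes was -0.25, and the mean log2 level of the list ran from 4.63 to 5.12 in pups 26 to 33 and from 4.40 to 4.79 in pups 35 to 42. Of the 35 further astrocyte genes 10 passed without adjustment, against 12.5% of all entries, 3 higher and 7 lower, and 1 after adjustment. What part these shifts have in the run differences of Sox9 and Aldh1l1 was not tested.

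Sex was compared in the same way. Between 9 female and 7 male pups, by the labels, with genotype in the fit, 1 of 31 had an unadjusted limma p under 0.05, against 4.46% of all entries, and 0 after adjustment, against 0.0425% of all entries. It was Apoe, higher in females as were 2.12% of all entries. Apoe ran from 280.6 over 314.8 to 359.2 CPM in males and from 311.3 over 353.2 to 391.8 CPM in females. The ranges overlapped and the log2 difference was 0.14 (95% interval 0.012 to 0.26, unadjusted p = 0.0339 in limma, exact permutation p = 0.0617). It did not pass when sex was taken from the list accompanying the study, which gives another sex for 1 pup, with the run as a covariate, or in 8 of 16 fits that left out 1 pup, among them that without pup 26 (0.11). The difference was above 0 in 25 of 31 genes and in 51.5% of all entries. Pup 26, lowest for many of these genes, is male. Without it the differences of Slc1a2 (-0.013), S100b (-0.014), Slc39a12 (-0.018), Ndrg2 (-0.0032) and Acsbg1 (-0.013) turned below 0. That of Gjb6 was 0.050, and the count above 0 was not taken without this pup. In the test of whether genotype differences depended on sex, Slc39a12 was the 1 gene of 31 with an unadjusted p under 0.05, against 4.31% of all entries. Its genotype difference was -0.14 in females and 0.27 in males (adjusted p = 0.993, limma).

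Many astrocyte genes varied between pups more than other genes of their level. The standard deviation of log2 values within genotypes was under 0.1 for 14 genes, between 0.1 and 0.2 for 10 and at least 0.2 for 7, which were Aqp4, Gjb6 (0.421), Hes5 (0.298), Id3 (0.237), Slc39a12 (0.222), S100b (0.205) and Gfap (0.205). Slc1a3 had the lowest, 0.0510. Of the 31 genes, 25 were above the median of entries of like level, 10 were in the top 10% and 0 in the lowest 10%. Pup 26 had the lowest value for 16 of the 31, among them Gjb6, Slc39a12, S100b and Gfap. The spreads were not taken without it. The spread of Aqp4 is that of an uncertain level, since its sum with A830021F12Rik had a standard deviation of 0.131 over all pups. The counting error expected from the reads was smaller than the spread for each of the 31, by 28.4 times for Aqp4 and 1.45 times for Id4.

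Pairs of genes that share a task were compared over the pups after removal of the genotype means. Of 10 pairs, 6 were correlated at a Benjamini-Hochberg adjusted permutation p under 0.05. The closest pair was that of the connexins. Gja1 and Gjb6 had r = 0.914 (rho = 0.844, permutation p = 1e-05, the smallest that 100000 resamples can give, adjusted p = 1e-04), and r was 0.826 without the 2 pups farthest from the median of Gja1. The glutamate genes followed, with r = 0.819 for Slc1a2 and Slc1a3 (rho = 0.759, adjusted permutation p = 0.000567) and 0.799 for Slc1a3 and Glul (rho = 0.656, adjusted permutation p = 0.000567). Apoe and Clu, both lipoprotein components, had r = 0.742 (rho = 0.679, adjusted permutation p = 0.0019). Gfap and Vim had r = 0.577 (rho = 0.700, adjusted permutation p = 0.0369) and Aqp4 and Mlc1 r = 0.567 (rho = 0.547, adjusted permutation p = 0.0372). Without the 2 farthest pups these last 5 pairs had r between 0.569 and 0.689. With values centred on the median of each pup, Gfap and Vim (r = 0.509) and Aqp4 and Mlc1 (r = 0.530) no longer passed (adjusted permutation p = 0.0705 for both), and 4 of 10 pairs did. By Spearman's rho the adjusted permutation p of the 6 pairs lay between 0.0007 and 0.05.

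The remaining 4 pairs did not pass. Gfap and Aqp4 had r = 0.401, Id3 and Id4 0.116 and Aldh1l1 and Aldoc 0.0094. Fabp7 and Hes5 ran in opposite directions, with r = -0.370 (rho = -0.506) in all pups and -0.710 without the 2 pups farthest from the median of Fabp7 (adjusted permutation p = 0.0220).

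The correlations were then computed within each run. Within pups 26 to 33, 5 of 10 pairs passed, with r = 0.971 for the connexins, 0.898 for Slc1a2 and Slc1a3, 0.837 for Slc1a3 and Glul, 0.918 for Apoe and Clu and -0.860 for Fabp7 and Hes5 (8 pups, permutation test). Within pups 35 to 42, 0 of 10 passed, with r = 0.667, 0.603, 0.519, 0.443 and -0.273 for the same pairs. Aldh1l1 and Aldoc had r = 0.611 in pups 26 to 33 and 0.433 in pups 35 to 42, against 0.0094 in all pups. Run means were not removed for that last value, and Aldh1l1 was lower in the later run. For Id3 and Id4, r was 0.668 and -0.082 in the 2 runs. Neither of these pairs passed in either run. Whether the runs differ in these correlations was not tested. Pup 26 belongs to pups 26 to 33, and the correlations within that run were not computed without it. Over both runs together, 6 of 10 pairs passed with pup 26 and 6 of 10 without it, which says nothing about the contrast of the runs.

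**Figure D4:**
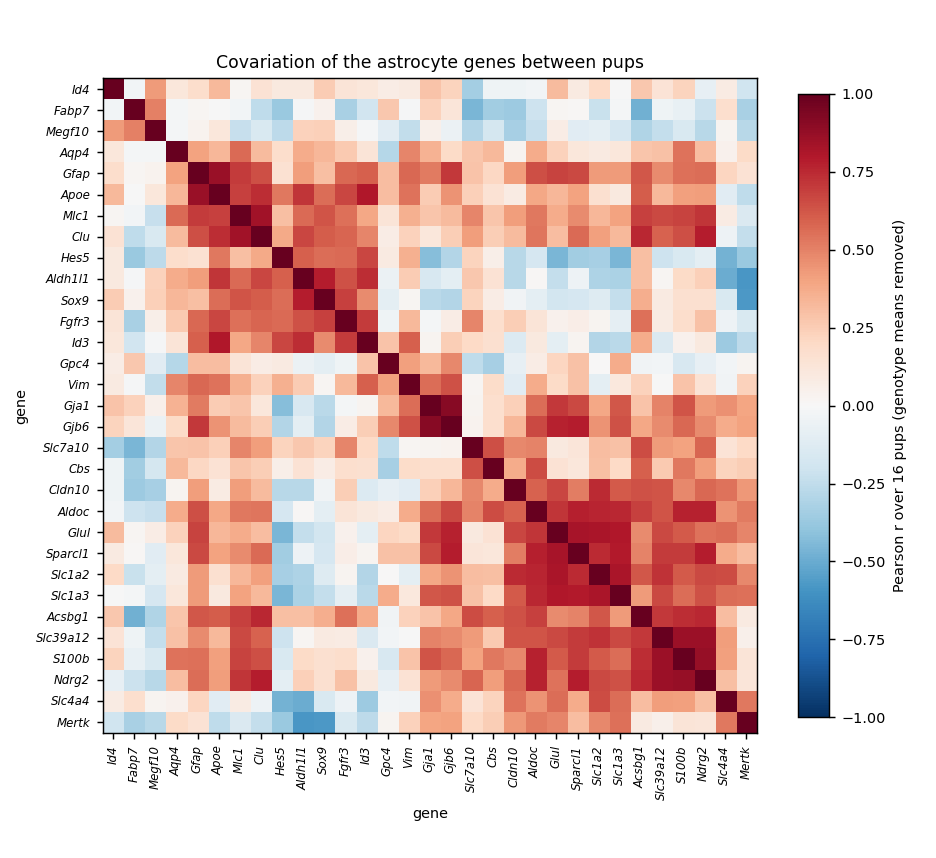
Pearson r between the log2 values of each pair of the 31 astrocyte genes over 16 pups, genotype means removed, from -1 (blue) to 1 (red), with genes ordered by similarity. Gja1 and Gjb6 (0.914), S100b and Ndrg2 (0.869) and Gfap and Apoe (0.864) are among the deepest red cells, and Aldh1l1 and Mertk (-0.583) the deepest blue.

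Over all 465 pairs of the 31 genes the median r was 0.260, and 122 pairs (26.2%) had r of at least 0.5. Among all entries tested the median was -0.00175 and 5.23% reached 0.5, or 7.11% among entries with a mean log2 level of 0 or more. All these pairs share the same 16 libraries, so that these are descriptions. Without pup 26 the median of the astrocyte pairs was 0.128 and 18.7% reached 0.5, against 7.63% among entries of that level. The set was not of one piece, since 112 pairs had r below 0. Besides the pairs above, high values were those of S100b and Ndrg2 (0.869), Gfap and Apoe (0.864), S100b and Slc39a12 (0.855), Mlc1 and Clu (0.839) and Aldh1l1 and Sox9 (0.788). The lowest were those of Mertk with Aldh1l1 (-0.583) and with Sox9 (-0.574), the genes that also differed between the runs of pups in opposite directions.

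The bases before the transcription start are shown for the connexin genes, which varied together, and for Hes5, Id3 and Gfap, which are among the 7 genes of highest spread. They are the 250 bases upstream of the start in RefSeq on GRCm38.p6, read 5' to 3' on the strand of the gene. RefSeq promoters were matched for 26 of 31 genes. The motifs searched, on both strands, were the TATA box TATAAA, the CCAAT box, the GC box GGGCGG, the NFI site TTGGCA, the E box CAGCTG, the RBPJ site GTGGGAA and the AP-1 site TGACTCA. No motif matches overlapped except the 2 GC boxes of Id3, and capitals mark the matches.
Gja1, chr10:56377050-56377299, plus strand: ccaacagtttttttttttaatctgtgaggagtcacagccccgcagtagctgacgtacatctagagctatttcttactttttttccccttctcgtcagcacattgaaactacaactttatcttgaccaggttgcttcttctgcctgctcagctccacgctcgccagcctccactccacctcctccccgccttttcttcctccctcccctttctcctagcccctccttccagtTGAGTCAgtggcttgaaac
Gjb6, chr14:57133612-57133861, minus strand: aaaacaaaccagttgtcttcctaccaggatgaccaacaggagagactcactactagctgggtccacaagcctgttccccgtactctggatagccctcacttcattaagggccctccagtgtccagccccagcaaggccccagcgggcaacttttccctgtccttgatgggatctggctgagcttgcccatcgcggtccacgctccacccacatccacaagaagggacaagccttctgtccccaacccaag
Hes5, chr4:154960673-154960922, plus strand: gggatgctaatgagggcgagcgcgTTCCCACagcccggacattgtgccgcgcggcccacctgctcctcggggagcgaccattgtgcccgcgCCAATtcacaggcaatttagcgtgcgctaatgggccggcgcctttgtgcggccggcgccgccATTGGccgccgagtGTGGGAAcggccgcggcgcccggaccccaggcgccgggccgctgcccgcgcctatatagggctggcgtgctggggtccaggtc
Id3, chr4:136143572-136143821, plus strand: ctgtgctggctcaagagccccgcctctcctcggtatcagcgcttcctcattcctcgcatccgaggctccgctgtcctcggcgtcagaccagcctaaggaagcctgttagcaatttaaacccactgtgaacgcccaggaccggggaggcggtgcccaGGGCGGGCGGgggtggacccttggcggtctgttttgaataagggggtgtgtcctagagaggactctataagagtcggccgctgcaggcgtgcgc
Gfap, chr11:102897201-102897450, minus strand: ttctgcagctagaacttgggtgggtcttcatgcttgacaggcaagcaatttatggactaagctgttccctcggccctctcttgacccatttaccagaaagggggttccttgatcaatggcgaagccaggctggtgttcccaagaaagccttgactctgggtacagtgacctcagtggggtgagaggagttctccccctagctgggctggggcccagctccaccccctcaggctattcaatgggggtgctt

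Gja1 and Gjb6 shared no match. Gja1 held the AP-1 site in its reverse form, TGAGTCA, 19 bases before the start, and Gjb6 held none of the motifs. The AP-1 site occurred in 4.46% of 32851 promoters of the genome. Hes5 held the RBPJ site, the letters bound by the transcription factor of the Notch pathway, once on each strand, 226 and 83 bases before the start, and 5.42% of all promoters held it. It also held the CCAAT box on each strand (33.8% of all promoters). Id3 held the GC box at 94 and 90 bases before the start (32.7% of all promoters), and Gfap held none. These matches describe the letters only.

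The mean log2 level of the 31 genes per pup, taken as an astrocyte score, was 5.875 ± 0.105 in ChR2-flfl pups and 5.917 ± 0.044 in Avil-ChR2 pups (mean ± SD of 8 pups each). The scores ran from 5.685 to 5.990 and from 5.861 to 5.986 and thus overlapped, with pup 26 lowest by far and the next ChR2-flfl pup at 5.808. The score moved with some lists of other cells. Its r with the radial glia, ependymal, pan-reactive and A2 lists is not given here. Over the pups, with genotype means removed, its r with the mean of the microglia list was 0.876 (0.779 without pup 26), with the further astrocyte genes 0.825 (0.731), with the A1 list 0.803 (0.693), with the endothelial and pericyte list 0.753 (0.674) and with the meningeal fibroblast list 0.706 (0.551). It was 0.197 (0.342) with the oligodendrocyte lineage list and 0.347 (0.00148) with the neuron list. These are descriptions over the same 16 libraries. The microglia mean ran from 3.079 to 3.604 in ChR2-flfl and from 3.299 to 3.564 in Avil-ChR2 pups, and 8 of its 9 genes were tested. P2ry12, a defining marker of microglia, held no value in any pup. With the microglia mean as a covariate, 2 of 31 astrocyte genes had an unadjusted p under 0.05 by genotype, again Slc4a4 (log2 difference -0.090) and Megf10 (-0.11). The share over all entries was not taken under this covariate.

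**Figure D5:**
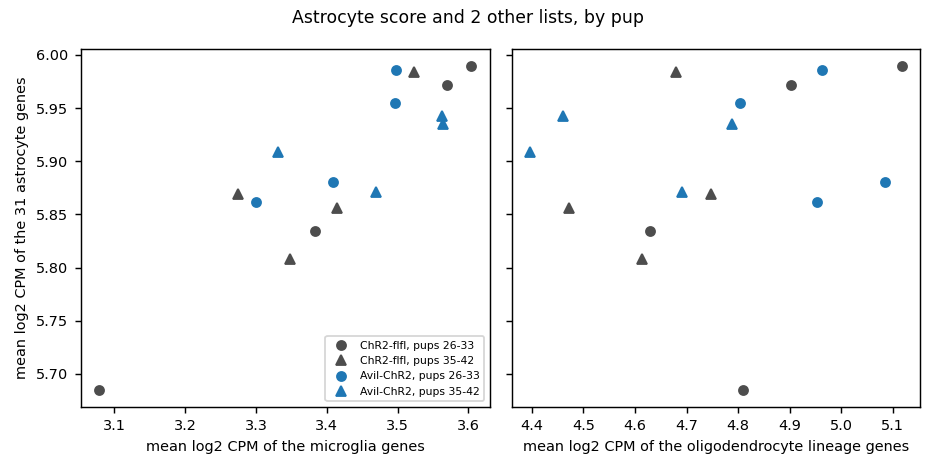
Mean log2 CPM of the 31 astrocyte genes (y axis) against that of the microglia list (left) and of the oligodendrocyte lineage list (right) in each pup. Colours mark the genotype and shapes the run of pup numbers. The lowest point, at 5.685, is ChR2-flfl replicate 1, the score rises with the microglia mean (r = 0.876), and the pups 35 to 42 lie to the left in the oligodendrocyte panel.

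The 10 genes outside the set that followed its common pattern best, out of 15106 candidates with a mean log2 level of 0 or more, were Csf1r (r = 0.906), Selplg (0.897), Dusp14 (0.893), Il34 (0.889), Ephx2 (0.881), Nde1 (0.877), Capzb (0.869), Cx3cr1 (0.868), Lamp1 (0.867) and Laptm5 (0.865). Here r is that of the gene with the mean of the 31 standardised genes over 16 pups, genotype means removed. Csf1r, the receptor for colony stimulating factor on microglia, ran from 27.2 to 44.2 CPM, and r was 0.856 without pup 26. Its ligand Il34 ran from 15.9 to 27.1 CPM (r = 0.809 without pup 26). Cx3cr1, the fractalkine receptor of microglia, ran from 16.04 to 25.2 CPM (0.721).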

How the data were processed

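RNA of P7 cortex from 16 pups was sequenced (TruSeq stranded mRNA libraries). The authors aligned reads to mm10 (GRCm38) with SeqMan NGen, counted them per gene in ArrayStar and scaled them with edgeR's TMM factors, and the deposited values are linear CPM, a column for each pup. Whether counting used the strand is not given in the sources used here. Values were whole multiples of 1 read (100% within 0.05, up to 20000 reads), which gave the reads per pup. The members, lists and gene pairs were chosen with earlier results of these data known.

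Groups, pup numbers and sex came from the labels. Missing values and values below -5 were set to -5 on the log2 scale, and entries with at least 12 of 16 pups above -5 were tested with limma 3.58.1 (R 4.3.3, eBayes with trend, two-sided), with Benjamini-Hochberg adjustment over all 21183 entries. Exact permutation tests by genotype and run used the 12870 splits of 16 pups into 8 and 8. Those by sex used all splits into 9 and 7. For run and sex, genotype means were removed first and pups were then split without regard to genotype. Exact there means only that all splits were used. These tests are two-sided, as are the permutation tests of correlations (100000 resamples, SciPy 1.17.1). Within a run of 8 pups, the latter used all orders of the pups instead. Standard deviations within genotypes and correlations used log2 values minus genotype means. The r of Aldh1l1, Slc7a10 and Id4 with overlapping entries used log2 values as they were. The length slope of a pup is that of its log2 values on gene length. CPM per kb used the longest GENCODE transcript. The text names all 31 members, genes of the other lists with an unadjusted p under 0.05 by genotype, and the 10 genes most alike. Intervals are 95% intervals over pups. The scripts were tested on simulated data. Alternatives in filter, scaling, covariates, pups and test were tried.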

Additional observations from a re-analysis of the deposited data

Results flagged for a closer look

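In ChR2-flfl pups, replicate 1 (pup 26) stood far below the other 7 pups for 3 genes. Slc1a2 was at 692 CPM, against 808 to 929 CPM in the others. Glul was at 385 CPM, against 469 to 520 CPM, and Sparcl1 at 834 CPM, against 944 to 1024 CPM. In each case the gap to the nearest pup, divided by the range of the group, exceeded Dixon's critical value for 8 pups at the 95% level. Of 62 groups tested (31 genes in 2 genotypes) 3 were found, and chance gives about 1 in 20, or 3.1. All 3 concerned the same pup, which also had the lowest means of the further astrocyte, neuron, microglia, endothelial, meningeal fibroblast and A1 lists. Its library held 48495728 reads.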

How the results depend on the processing

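Between the genotypes, 0 of 31 genes had an adjusted p under 0.05 in every alternative run, and the smallest was 0.534. The unadjusted count of 2 was 0 with the length slope as a covariate, 2 with the replicate block and 1 to 6 when 1 pup was left out. The score difference ranged from 0.0154 to 0.0590 when 1 pup was left out. By run, leaving out 1 pup gave 3 to 8 genes without adjustment (8 without ChR2-flfl replicate 1) and 0 to 1 with it. For the counts by genotype, run and sex under the alternatives, the shares over all entries were not taken. These counts can therefore not be set against those of all entries. By sex, the count of 1 was 2 with the length slope, 2 with the run as a covariate (Glul and Sparcl1, without Apoe), 0 with the other source of sex and 0 to 4 when 1 pup was left out, and the interaction count of 1 was 3 with the other source of sex. The correlated pairs, 6 in all, were 0 in pups 35 to 42, 5 in pups 26 to 33, 4 with median centring, 7 without the 2 farthest pups and 6 without ChR2-flfl replicate 1. No result reversed past its threshold, and the causes were not tested. Same-numbered pups of both genotypes are different animals, with correlations of -0.070 to 0.125, and 1 of 8 correlated best with its own number, so the numbers were not taken as pairs. The planned edgeR fit was not run. The voom fit on whole reads (3 genes without adjustment), the microglia covariate, the Aqp4 sum, the score without Aqp4 (0.0315) and the pairs without 1 pup were chosen after seeing the data. Each gene had at least 243 reads, and counting error took part in the spread of the scarce ones (spread 1.45 times the counting error for Id4 and 1.52 times for Megf10).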

Other observations

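Entries that lie within another entry mostly held no value. Of 2415 entries within an entry on the same strand, 2309 (95.6%) had no value in any pup, as had 3231 of 3451 (93.6%) within an entry on the other strand only. The share was 13.6% (3027 of 22239) for entries that overlap none and 1.42% (125 of 8825) for those that overlap another in part. Of 133 list genes looked up, 8 had no value in any pup and all 8 lie within another entry. These are the microglial receptor P2ry12 (within Med12l), the stem cell factor Sox2 (within Sox2ot), Timp1 (within Syn1), Cxcl10 (within Art3), H2-T23 (within A930015D03Rik), Clcf1 (within LOC102631992), Ptx3 (within Veph1) and the choroid plexus channel Kcnj13 (within Gigyf2), so that these genes could not be read for microglia, precursors or reactive astrocytes.

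Pairs of partly overlapping entries were strongly opposed more often than neighbours, although the median r was 0.127 for them and 0.112 for neighbours. Of 1531 such pairs 97 (6.34%) had r below -0.5 over the pups, against 416 of 13642 pairs of neighbours that do not overlap (3.05%). One of them, chosen after its values were seen, holds another glutamate transporter, Slc1a1, which shares 68433 bases with 4430402I18Rik. Their r was -0.926, and the standard deviation in log2 was 0.227 for Slc1a1, 0.234 for the other entry and 0.0395 for the sum of both.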
